A study of Mus musculus with 42 samples.

Results

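Fgf4, Fgfr1, Spry1, Spry2, Spry4, Spred1, Spred2, Dusp6, Etv4 and Etv5 encode a growth factor signal of mouse embryonic stem cells, a receptor for it, and the feedback inhibitors and transcription factors that the signal induces. These 10 genes were taken by symbol from both deposited count tables, which hold 18825 genes in experiment 1 and 19866 in experiment 2. All 10 were found in each table, and all 10 passed the filter on low counts, which left 18772 and 19778 genes to test. The 5 largest recoveries with the tag were those of Fgf4, Spry4, Spred2, Spry2 and Spred1 in both experiments. Dusp6 and Etv5 were not called as recovered, and Fgfr1 and Etv4 lay below the median gene.

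RIP-seq, the sequencing of RNA that is immunoprecipitated with a protein, was done in 129S6/SvEvTac embryonic stem cells that carry a GFP_5xT71BS reporter (yGlob) and stably transfected FLAG-Cas9. Untagged cells carry nothing further, tagged cells carry HA-AVI-Tnrc6a, and the knockout lines are tagged cells that are in addition Trim71-/- (Trim71KO) or Ago2-/- (Ago2KO). Anti-HA beads gave the immunoprecipitated RNA (IP) and the lysate gave the input. Experiment 1 has untagged, tagged and Trim71KO cells, and experiment 2 adds Ago2KO, with 3 libraries for each genotype and fraction, 42 in all. The reporter and Cas9 are shared by every group. The labels do not say whether each line is 1 clone, so a difference between genotypes is a difference between these lines. They say that cells were grown in triplicates, and p-values measure the spread between these libraries, which may be technical.

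Fgf4 protein is secreted by embryonic stem cells and binds FGF receptors, which pass the signal through Frs2, Grb2 and Sos1 to Ras and on to the kinases Raf, MEK and ERK. ERK activity induces its own inhibitors. Sprouty (Spry) and Spred proteins restrain the path between receptor and Raf, and Dusp6 removes phosphate from ERK. In these cells the pathway is known for preparing the exit from pluripotency and for specifying primitive endoderm. Tnrc6a is a GW182 protein that Argonaute proteins bring to mRNAs by microRNA guides, and Trim71 is an RNA-binding protein that represses mRNAs in stem cells.

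Mature microRNAs known in embryonic stem cells are shown for what an Argonaute guide looks like, followed by miR-21a-5p, which is known in other tissues for repressing Sprouty genes. The sequences are from RefSeq (GRCm38.p6), 5′ to 3′, and capitals mark the seed, bases 2 to 8, which pairs with the target.
mmu-miR-291a-3p: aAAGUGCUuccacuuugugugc
mmu-miR-294-3p: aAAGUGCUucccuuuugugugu
mmu-miR-295-3p: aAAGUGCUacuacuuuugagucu
mmu-miR-302b-3p: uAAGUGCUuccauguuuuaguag
mmu-miR-21a-5p: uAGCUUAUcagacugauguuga
The first 4 share the seed AAGUGCU, and the last has AGCUUAU. Their levels and their matches in the members' transcripts were not examined here.

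Libraries held 12587257 to 23657840 counts in experiment 1 and 16296447 to 21026552 in experiment 2. The least covered member value, Spry1 in an untagged IP library, still rested on 187 counts. Values are CPM, read counts scaled to a common library size, and a level in IP is relative to the other RNAs on the beads. All 8 embryonic stem cell markers were present, with a summed input level between 5902 and 8776 CPM over all groups. Tnrc6a mRNA, the tagged gene, stood 294-fold over input in tagged cells of experiment 1 and 206-fold in experiment 2, against 0.907-fold and 0.863-fold in untagged cells. Ago2 input RNA was lower in Ago2KO than in tagged cells (log2 change -1.12, SE 0.10, edgeR adjusted p 2.52e-08). Input RNA of Trim71 was higher rather than lower in the libraries labelled Trim71KO (log2 change 0.23 and 0.42 in the 2 experiments). Input RNA levels thus do not check that label, and Trim71KO below means those libraries. Trim71 mRNA stood 1.26-fold over input in Trim71KO against 4.23-fold in tagged cells of experiment 1. In experiment 2 it stood 1.15-fold in Trim71KO, 1.56-fold in Ago2KO and 2.33-fold in tagged cells.

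Input RNA shows how much of each transcript the cells held. Levels were compared between genes as CPM per kb of the deposited gene length, as means of 3 tagged input libraries. In experiment 1 the order from the bottom was Spry1 (5.39 ± 0.621 CPM per kb), Fgfr1 (8.83 ± 0.634), Spred1 (10.4 ± 0.696), Dusp6 (21.7 ± 1.45), Spred2 (21.7 ± 3.88), Fgf4 (46.1 ± 1.18), Spry4 (50.0 ± 7.28), Etv4 (61.5 ± 1.06), Spry2 (62.8 ± 3.50) and Etv5 (67.4 ± 10.8), each with its SD. Neighbours overlapped in their ranges from Dusp6 to Spred2, from Fgf4 to Spry4, and from Etv4 through Spry2 to Etv5. In experiment 2 Etv5 was again highest, at 85.9 ± 2.47 CPM per kb, followed by Fgf4 at 58.1 ± 2.35. Spry2 and Spry4 followed at 50.6 ± 2.47 and 47.2 ± 5.25 with overlapping ranges, and Spry1 was again lowest at 4.93 ± 0.569. The pathway's ligand and its Sprouty inhibitors Spry2 and Spry4 were thus well expressed in both experiments, while the receptor Fgfr1 and Spry1 lay near the bottom of this set.

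**Figure D1:**
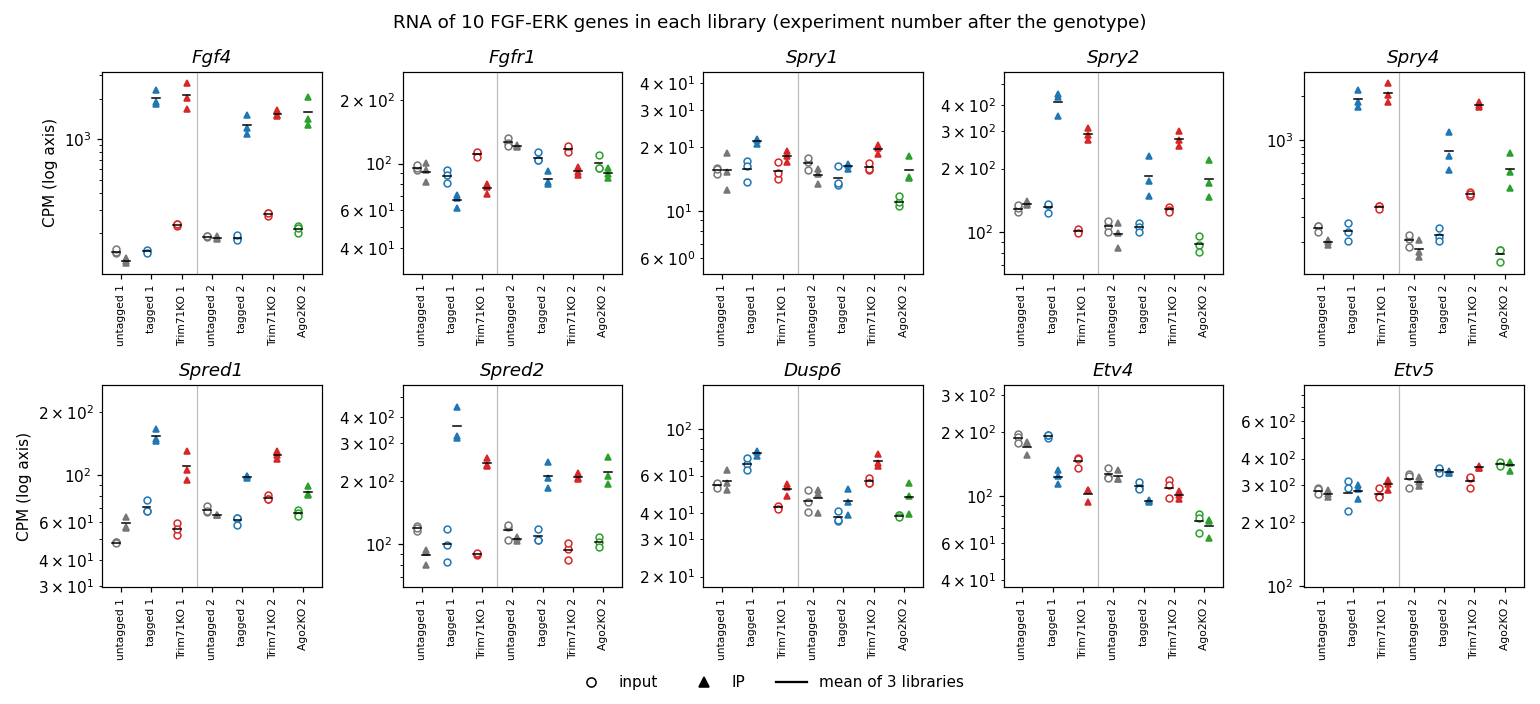
Level of each gene in every library, in CPM on a log axis whose range differs between panels; open circles are input, filled triangles are IP, black bars are the mean of 3 libraries, and the number after each genotype is the experiment. Fgf4, with 1091 to 2631 CPM in IP libraries of cells that carry the tag and 120 to 190.1 CPM in untagged IP libraries, shows the widest gap.

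Which RNAs came down because of the tag was measured as tag-specific enrichment. This is log2 (IP/input) in tagged cells minus log2 (IP/input) in untagged cells, tested with edgeR, and a gene is called at an adjusted p under 0.05 over all genes. In experiment 1, 6 of 10 members were called higher and 2 lower, where 56.9% of all genes were called, 28.1% higher and 28.8% lower. In experiment 2, 6 were called higher and 1 lower, where 27.7% of all genes were called and 18.9% were higher. Medians over the members were 0.63 and 0.57, beside -0.10 and -0.03 over all genes. The members higher in both were the ligand and all Sprouty and Spred genes. That share is above the background in both experiments, but the list was chosen by name with earlier results known, and no test was made of it.

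The ligand gene Fgf4 (ENSMUSG00000050917, GRCm38 chr7:144861386-144865245) had the largest enrichment of the 10. In experiment 1 its input stood at 147, 151 and 144 CPM in the tagged libraries, while tagged IP held 2310, 1830 and 1871 CPM. Untagged IP held only 120, 124 and 131 CPM. No tagged IP library came near an untagged one, and the ratio of IP to input was 13.6-fold in tagged against 0.856-fold in untagged cells. The difference was 3.99 on the log2 scale (SE 0.18, edgeR adjusted p 3.5e-15), rank 255 of 18772 genes. In experiment 2 tagged IP held 1509, 1219 and 1091 CPM, and untagged IP 181, 190.1 and 186 CPM. The groups again lay far apart, with ratios of 6.86-fold and 0.980-fold, which differ by 2.81 (SE 0.17, edgeR adjusted p 4.85e-13), rank 249 of 19778.

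Fgfr1 (ENSMUSG00000031565, chr8:25518759-25575718) encodes the FGF receptor of this set, and its RNA was not recovered with the tag. Tagged IP held 61.9, 68.4 and 70.9 CPM in experiment 1 and 80.2, 81.7 and 92.0 CPM in experiment 2. Untagged IP held more, 81.6 to 100.1 and 119.6 to 121.8 CPM, without overlap in either experiment. Input was higher in untagged cells as well, again without overlap. It held 93.6 to 98.1 CPM against 80.6 to 93.0 CPM in tagged cells of experiment 1. In experiment 2 these ranges were 121.4 to 131.8 and 103.4 to 112.9 CPM. Tag-specific enrichment was -0.32 (SE 0.13, edgeR adjusted p 0.0328) and -0.27 (SE 0.09, edgeR adjusted p 0.033). Of 12 fits with a library removed, 8 lost the experiment 1 call, as did 3 other settings, and the adjusted p reached 0.172. For experiment 2, 5 of 12 such fits lost it, with adjusted p up to 0.0812. Reads of the RNAs Gm31288 and Gm16159, whose RefSeq spans overlap Fgfr1, could not be told apart from it if counting ignored strand.

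Among the Sprouty genes, whose proteins block signalling between receptor and Raf, Spry4 (ENSMUSG00000024427) was recovered most. Tagged IP held 1832, 1691 and 2194 CPM in experiment 1, against 193 to 206 CPM in untagged IP and 203 to 273 CPM in tagged input. In experiment 2 tagged IP held 1141, 783 and 623 CPM, against 159 to 207 CPM in untagged IP. Every tagged IP library was above every untagged one, although the tagged libraries of experiment 2 spread widely. The enrichment was 3.33 (SE 0.17, edgeR adjusted p 4.49e-14) and 2.13 (SE 0.23, edgeR adjusted p 2.89e-08).

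Spry2 (ENSMUSG00000022114, chr14:105891947-105896819) followed the same direction at smaller size. Tagged IP held 434, 354 and 449 CPM in experiment 1 and 229, 176 and 148 CPM in experiment 2, against 134 to 140 and 84.0 to 110.4 CPM in untagged IP. The groups did not overlap, and the enrichment was 1.58 (SE 0.13, edgeR adjusted p 2.16e-10) and 0.93 (SE 0.18, edgeR adjusted p 0.000214). Spry1 (ENSMUSG00000037211, chr3:37639947-37644599), the least expressed member, had 20.7 to 21.8 CPM in tagged IP and 12.5 to 18.6 CPM in untagged IP of experiment 1. In experiment 2 it had 15.7 to 16.6 and 13.3 to 15.8 CPM, groups that overlap. Its enrichment of 0.45 (SE 0.18, edgeR adjusted p 0.0314) and 0.38 (SE 0.14, edgeR adjusted p 0.0465) was near the threshold. In experiment 2, 6 of 7 settings and 8 of 12 fits with a library removed lost the call, with adjusted p up to 0.378, and in experiment 1, 4 of 12 did, with adjusted p up to 0.0947.

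Both Spred genes, which encode relatives of Sprouty that hold back Raf, were called in both experiments. Spred2 (ENSMUSG00000045671, chr11:19924442-20024026) had 319, 327 and 446 CPM in tagged IP of experiment 1, and 244, 206 and 185 CPM in experiment 2. Untagged IP held 80.0 to 94.5 and 104.2 to 107.9 CPM, below every tagged library. Spred2 enrichment was 2.29 (SE 0.17, edgeR adjusted p 5.2e-11) and 1.08 (SE 0.14, edgeR adjusted p 4.7e-07). Spred1 (ENSMUSG00000027351, chr2:117121071-117182279) had 166, 145 and 149 CPM and then 99.1, 98.8 and 97.1 CPM in tagged IP, against 56.7 to 63.8 and 65.0 to 65.3 CPM in untagged IP. Its libraries were tight and did not overlap, and its enrichment was nearly equal in the experiments, 0.82 (SE 0.14, edgeR adjusted p 3.62e-05) and 0.76 (SE 0.08, edgeR adjusted p 1.78e-08).

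Dusp6 and Etv5 were not called as recovered, and Etv4 was lower in experiment 1. Dusp6 (ENSMUSG00000019960, chr10:99263231-99267489), the ERK phosphatase, had an enrichment of 0.11 (SE 0.12, 95% interval -0.14 to 0.37) in experiment 1. In experiment 2 the value was 0.21 (SE 0.16, 95% interval -0.11 to 0.53). Etv5 (ENSMUSG00000013089, chr16:22381313-22439570), an ETS transcription factor gene, had 259, 288 and 299.9 CPM in tagged IP of experiment 1 and 351, 341 and 341 CPM in experiment 2. Untagged IP held 263 to 284 and 299 to 326 CPM, and the enrichment was 0.08 (SE 0.14) and 0.00 (SE 0.09). Etv4 (ENSMUSG00000017724, chr11:101769747-101785310), its close relative, had 113, 132 and 124 CPM in tagged IP of experiment 1, under the 156 to 179 CPM of untagged IP. That difference of -0.50 (SE 0.12, edgeR adjusted p 0.00145) was called, whereas the -0.20 (SE 0.12, edgeR adjusted p 0.201) of experiment 2 was not. With library size alone as the scale the experiment 2 value was called as well (adjusted p 0.00699), while the median of all genes moved to -0.24. Dusp6 overlaps the span of Gm34921.

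**Figure D2:**
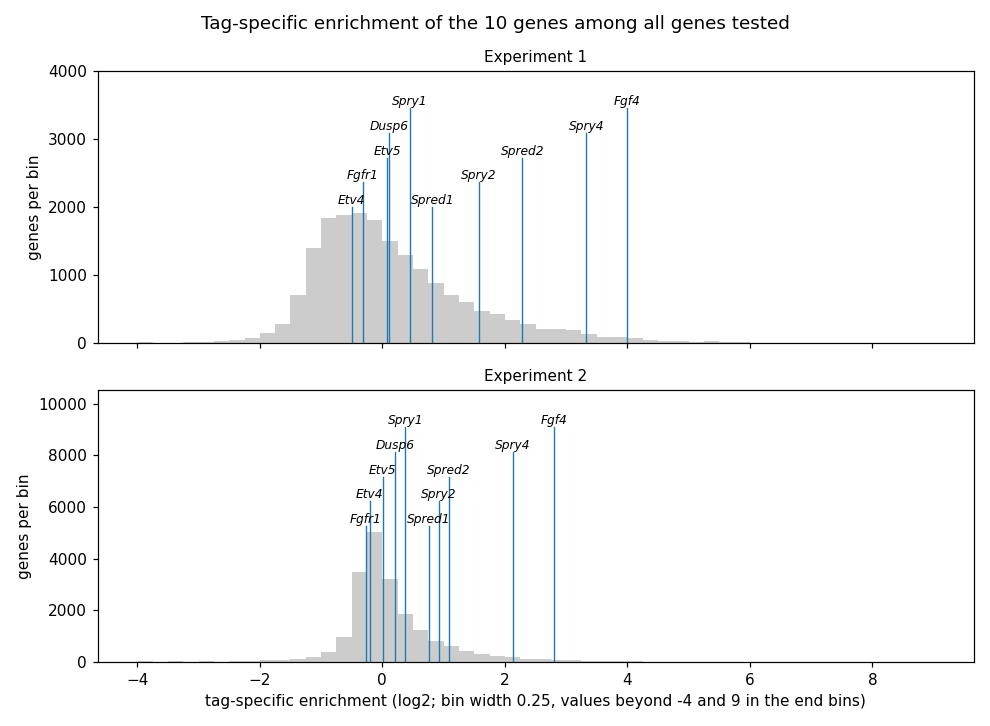
Tag-specific enrichment of the 10 genes (blue lines, log2) on the histogram of all genes tested (grey, genes per bin of 0.25), with experiment 1 above and experiment 2 below. Fgf4 lies farthest right at 3.99 and 2.81, and Etv4 and Fgfr1 lie left of 0 in both.

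The recovery of 4 members was smaller in experiment 2. In a fit of all 42 libraries the tag-specific enrichment in experiment 2 minus that in experiment 1 was -1.29 for Fgf4 (SE 0.26, edgeR adjusted p 0.000298) and -1.31 for Spry4 (SE 0.31, edgeR adjusted p 0.00167). For Spred2 it was -1.31 (SE 0.23, edgeR adjusted p 7.77e-05) and for Spry2 -0.75 (SE 0.24, edgeR adjusted p 0.0151). Such a difference was called in 28.5% of 18620 genes, and the median over all genes was -0.05. Large enrichments were fewer over all genes in experiment 2. The bin from 3 to 3.25 held 186 of 18772 genes in experiment 1 and 63 of 19778 in experiment 2. The share of all genes called higher was 28.1% and 18.9%. A smaller value in experiment 2 is thus not particular to these members. Unlike those 4 members, Spred1 gave -0.16 (SE 0.16, edgeR adjusted p 0.486). Its ratio of IP to input was lower in experiment 2 in both lines, however. It went from 2.17-fold to 1.60-fold in tagged cells and from 1.23-fold to 0.945-fold in untagged cells. Tnrc6a mRNA also stood lower over input in experiment 2, 206-fold against 294-fold, and its part in the result was not tested.

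Recovery in the libraries labelled Trim71KO was measured by setting the ratio of IP to input in Trim71KO cells against that in tagged cells. None of the 10 members was called in either experiment with edgeR, where 3.74% (0.272% higher, 3.47% lower) and 1.49% (0.753% higher, 0.738% lower) of all genes were. Unadjusted p was under 0.05 for 3 members in experiment 1 and for 1 in experiment 2, and DESeq2 called 0 in both. Fgf4 in Trim71KO IP of experiment 1 held 2631, 2022 and 1683 CPM against 1830 to 2310 CPM in tagged IP, overlapping ranges, while its input had risen to 228, 234 and 235 CPM. The ratio of IP to input thus went from 13.6-fold to 9.09-fold, or -0.58 on the log2 scale (SE 0.17, 95% interval -0.93 to -0.23, edgeR adjusted p 0.0592). The same fit called it when tagged IP replicate 2 or Trim71KO IP replicate 1 was left out. Values over all such fits ran from -0.71 to -0.35. Fgf4 was also called when the replicate number was a block within fraction (edgeR adjusted p 0.0363). Same-numbered tagged and Trim71KO libraries of experiment 1 correlated at 0.41, 0.248 and -0.0634 in IP. In input they correlated at -0.0884, 0.106 and -0.082, so whether the numbers pair these samples is not settled.

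In experiment 2 the Fgf4 ratio was 5.58-fold in Trim71KO and 6.86-fold in tagged cells, a difference of -0.30 (95% interval -0.63 to 0.04, edgeR adjusted p 0.402). Spry4 had -0.42 (95% interval -0.76 to -0.08, edgeR adjusted p 0.205) in experiment 1 and 0.11 (-0.36 to 0.57, edgeR adjusted p 0.883) in experiment 2. Without Trim71KO IP replicate 1 the Spry4 value of experiment 1 was called as well, at an adjusted p of 0.0395. Spred2 had -0.43 (-0.78 to -0.08, edgeR adjusted p 0.212) and 0.21 (-0.08 to 0.49, edgeR adjusted p 0.517). The values of these 3 inhibitor and ligand genes were below 0 in experiment 1, and the intervals of experiment 2 include 0 for each. Over input, Tnrc6a mRNA stood 162-fold in Trim71KO against 294-fold in tagged cells of experiment 1, and 157-fold against 206-fold in experiment 2. Its Trim71-dependent difference was -0.86 (SE 0.24, edgeR adjusted p 0.0476) and -0.40 (SE 0.28, edgeR adjusted p 0.542). The part of Tnrc6a mRNA in the members' values was not tested. The difference between the experiments was called for 0 members by edgeR, where 0.0967% of 18620 genes were called.

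Enrichment over untagged cells was also measured in the libraries labelled Trim71KO. In Trim71KO cells of experiment 1, 5 members were called higher than in untagged cells and 2 lower, where 54.9% of all genes were called, 25.6% higher and 29.3% lower. In experiment 2, 7 were higher and 1 lower, where 38.7% of genes were called, 23% higher and 15.7% lower. Fgf4 stood at 3.41 (SE 0.18) and 2.51 (SE 0.17) and Spry4 2.91 (SE 0.17) and 2.23 (SE 0.23). Of the smaller values, Etv4 in experiment 1 (-0.37) lost its call in 11 of 12 fits with a library removed, and Etv5 in experiment 2 (0.25) in 8 of 12. All of these values share their untagged libraries with the tag-specific ones above.

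**Figure D3:**
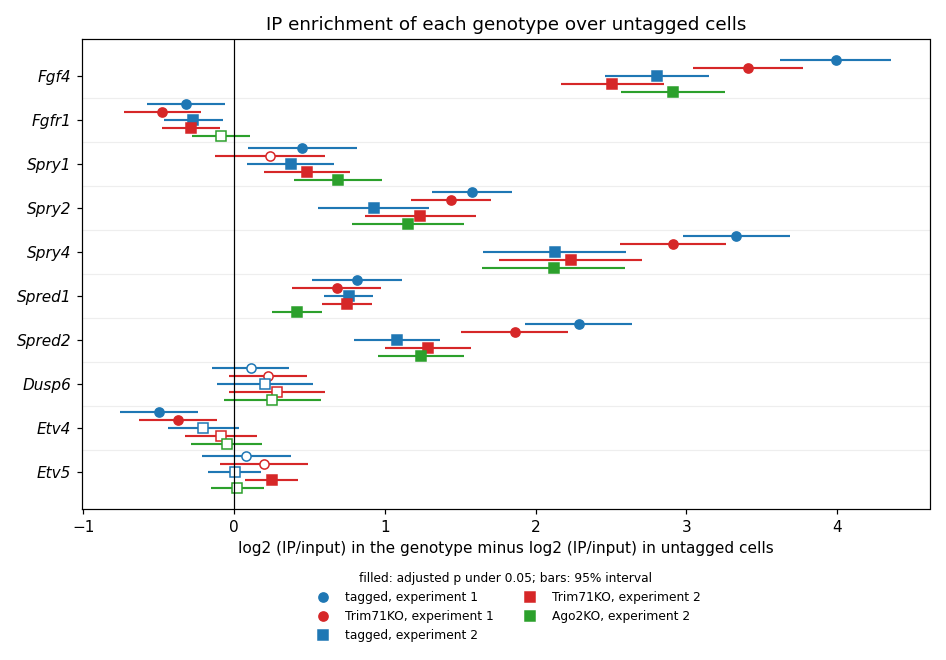
Log2 (IP/input) in each genotype minus the value in untagged cells, with the 95% interval; circles are experiment 1, squares experiment 2, blue is tagged, red Trim71KO and green Ago2KO, and filled symbols have an adjusted p under 0.05. In every genotype Fgf4 and Spry4 stand highest, at 2.12 or more, and all symbols of an experiment share its untagged libraries.

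Ago2KO cells could be compared in experiment 2 alone. Spred1 was the single member called, where 4.16% of all genes were called and 3.77% were lower. Spred1 in Ago2KO cells held 89.3, 81.6 and 80.7 CPM in IP and 68.6, 66.3 and 64.5 CPM in input. In tagged cells it held 99.1, 98.8 and 97.1 CPM in IP and 62.7, 63.2 and 58.4 CPM in input, so IP was lower and input higher in every Ago2KO library. The ratio fell from 1.60-fold to 1.26-fold, or by -0.34 on the log2 scale (SE 0.08, edgeR adjusted p 0.00975), and none of 12 fits with a library removed lost the call. With library size alone the call was lost, the adjusted p reached 0.168, and the median of all genes moved to 0.11.

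Spred1 was also called between the knockouts, higher in Trim71KO than in Ago2KO cells by 0.33 (SE 0.08, edgeR adjusted p 0.00558), where 11.8% of all genes were called, 8.94% higher and 2.86% lower. Fgf4 held 2072, 1276 and 1414 CPM in Ago2KO IP, with replicate 1 well above the others. Its Ago2-dependent difference was 0.10 (SE 0.16, 95% interval -0.23 to 0.44), and that of Spry4 was -0.01 (SE 0.23, 95% interval -0.48 to 0.46). The Spry4 interval includes a change as large as that of Spred1, so a missed threshold does not show that their recovery was the same in Ago2KO cells. In Ago2KO cells 6 members were called against untagged cells, all higher, where 20.9% of genes were called, 15.8% higher and 5.11% lower.

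**Figure D4:**
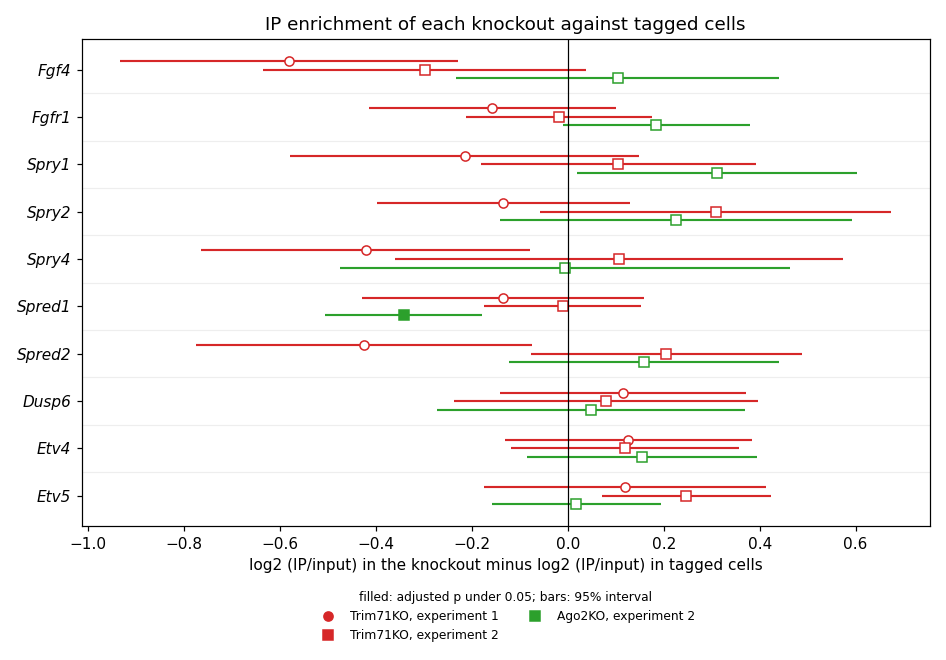
Log2 (IP/input) in a knockout minus that in tagged cells, with the 95% interval; red circles and squares are Trim71KO in experiments 1 and 2, green squares are Ago2KO, and filled symbols have an adjusted p under 0.05. Spred1 in Ago2KO at -0.34 is the single filled symbol, and Fgf4 in Trim71KO of experiment 1 at -0.58 is the lowest.

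Input RNA tells what happened to the transcripts themselves. In Trim71KO against tagged cells of experiment 1, 3 members were higher and 4 lower, where 34% of all genes were called, 16.5% higher and 17.4% lower. In experiment 2, 4 were higher and 1 lower, where 27.2% of genes were called, 13.5% higher and 13.7% lower. Fgf4 and Spry4 rose in both experiments. Fgf4 stood at 228 to 235 CPM in Trim71KO against 144 to 151 CPM in tagged cells of experiment 1, and at 268 to 283 against 179 to 194 CPM in experiment 2. No library overlapped, and the log2 change was 0.66 (SE 0.12, edgeR adjusted p 0.000225) and 0.58 (SE 0.12, edgeR adjusted p 0.000432).

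Spry4 stood at 354, 356 and 339 CPM in Trim71KO and at 273, 203 and 237 CPM in tagged input of experiment 1. In experiment 2 it stood at 440.5, 414 and 431 against 252, 217 and 204 CPM. All Trim71KO libraries were higher, by 0.56 (SE 0.12, edgeR adjusted p 0.000853) and 0.93 (SE 0.16, edgeR adjusted p 8.48e-05). Fgfr1 rose by 0.34 (SE 0.09, edgeR adjusted p 0.00387) in experiment 1, from 80.6 to 93.0 CPM in tagged to 107.5 to 113.2 CPM in Trim71KO libraries. In experiment 2 its change of 0.14 (SE 0.07, edgeR adjusted p 0.125) was not called.

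Dusp6 and Spred1 were called in opposite directions in the experiments. Dusp6 had 67.8, 72.6 and 63.5 CPM in tagged and 42.7, 43.3 and 41.5 CPM in Trim71KO input of experiment 1. In experiment 2 it had 40.8, 36.8 and 37.2 CPM in tagged and 58.2, 55.5 and 55.6 CPM in Trim71KO input. The Trim71KO libraries were thus all lower in experiment 1 and all higher in experiment 2, by -0.68 (SE 0.09, edgeR adjusted p 3.43e-06) and 0.56 (SE 0.11, edgeR adjusted p 0.000315). The experiment 2 change minus that of experiment 1 was 1.23 (SE 0.14, edgeR adjusted p 9.59e-08). Differences of this kind were called in 22.8% of 18620 genes.

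Spred1 went from 67.7 to 76.1 CPM in tagged to 52.5 to 59.8 CPM in Trim71KO input of experiment 1, and from 58.4 to 63.2 to 77.4 to 80.6 CPM in experiment 2. Untagged input of experiment 1 held 47.8 to 48.4 CPM of Spred1, below both. That of experiment 2 held 67.2 to 71.9 CPM, between tagged and Trim71KO input. The changes were -0.34 (SE 0.10, edgeR adjusted p 0.0132) and 0.35 (SE 0.06, edgeR adjusted p 2.9e-05), and they differed by 0.68 (SE 0.11, edgeR adjusted p 3.73e-05). Without Trim71KO input replicate 2 the call of experiment 1 was gone, at an adjusted p of 0.0739. Spry2 had -0.37 (SE 0.09, edgeR adjusted p 0.00285) and 0.28 (SE 0.13, edgeR adjusted p 0.103), a difference of 0.65 (SE 0.17, edgeR adjusted p 0.00449). A fit of only the groups compared called the Spry2 value of experiment 2.

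Etv4, by comparison, was lower in experiment 1 by -0.40 (SE 0.09, edgeR adjusted p 0.00125), from 187 to 193 CPM to 135 to 151 CPM. Its change in experiment 2 was -0.02 (SE 0.08, edgeR adjusted p 0.888). The difference of 0.37 (SE 0.12) had an edgeR adjusted p of 0.0184, and of 0.113 with library size alone. Etv5 was lower in experiment 2 by -0.17 (SE 0.06, edgeR adjusted p 0.0429). Of 6 fits with a library removed, 5 lost that call, and it was also lost with RLE size factors, without the filter and with DESeq2, at adjusted p up to 0.224. Spred2 was lower in experiment 2 by -0.23 (SE 0.10, edgeR adjusted p 0.0884). That value was called in 3 of 6 settings, with library size alone, with only the groups compared, and with the replicate number as a block. The block called 6 members in place of 5.

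**Figure D5:**
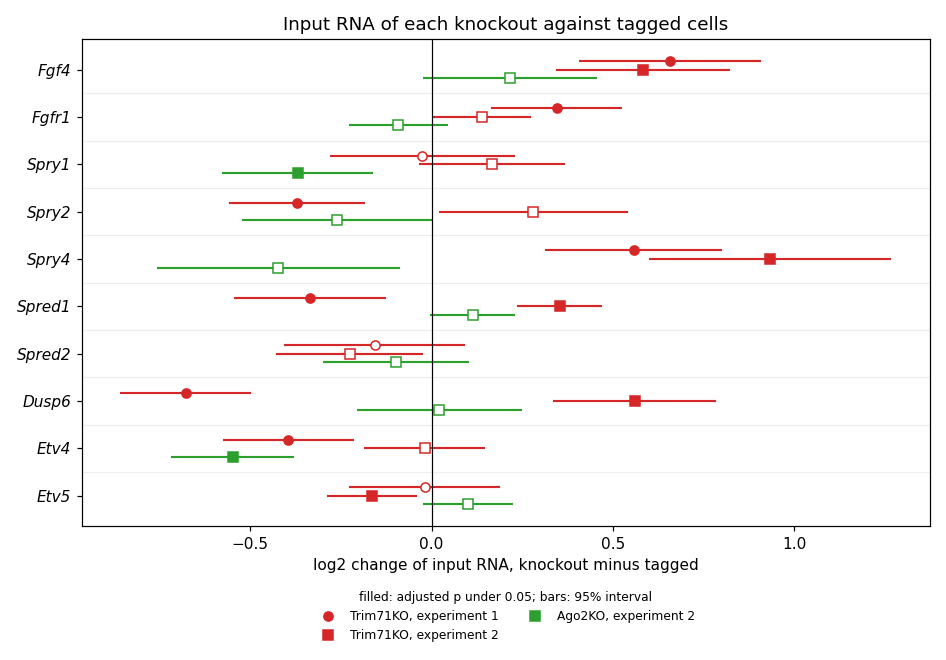
Log2 change of input RNA in a knockout against tagged cells, with the 95% interval; red circles and squares are Trim71KO in experiments 1 and 2, green squares are Ago2KO, and filled symbols have an adjusted p under 0.05. Fgf4 and Spry4 are right of 0 in both Trim71KO contrasts, while Dusp6 is at -0.68 in experiment 1 and at 0.56 in experiment 2.

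Summed marker levels differed between these lines, those of embryonic stem cells included. The 8 stem cell markers summed to 6279 to 6638 CPM in tagged and 7449 to 7656 CPM in Trim71KO input of experiment 1. In experiment 2 they summed to 7606 to 7725 CPM in tagged, 8703 to 8776 CPM in Trim71KO and 8175 to 8273 CPM in Ago2KO input. The summed input level of 8 primitive endoderm markers was 66.5 to 89.3 CPM in tagged and 12.9 to 15.4 CPM in Trim71KO cells of experiment 1. In experiment 2 the 7 of these in the table summed to 22.9 to 25.3 CPM in tagged, 8.8 to 10.7 CPM in Trim71KO and 10.1 to 11.5 CPM in Ago2KO cells. Primed epiblast markers were listed as 5 symbols, of which Oct6 is another name of Pou3f1, and 3 were in the table. They summed to 136 to 176 CPM in tagged and 172 to 181 CPM in Trim71KO cells of experiment 1. In experiment 2 they summed to 136 to 145 and 213 to 240 CPM. Fibroblast markers, 2 of 5 in the table, summed to 22.6 to 24.5 and 58.0 to 61.8 CPM in experiment 1, and to 34.2 to 35.8 and 49.5 to 51.9 CPM in experiment 2. Trophectoderm markers, 2 of 5 in the table, and mesoderm and endoderm markers, 3 of 4, reached at most 14.9 CPM in input. No listed marker in the tables was at 0. The part of these cells in the members' changes was not tested, and in bulk RNA fewer cells of a type and less RNA per cell cannot be told apart.

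Ago2KO input differed less from tagged input. Only Etv4 and Spry1 were called, both lower, where 6.96% of all genes were called, 4.38% higher and 2.57% lower. Etv4 stood at 81.8, 78.4 and 66.8 CPM in Ago2KO and 116, 109 and 107 CPM in tagged libraries, without overlap, a change of -0.55 (SE 0.08, edgeR adjusted p 6.78e-05). Spry1 stood at 10.5 to 11.7 CPM against 13.3 to 16.2 CPM, a change of -0.37 (SE 0.10, edgeR adjusted p 0.0248). The Spry1 call was lost when tagged input replicate 2, Ago2KO input replicate 1 or Ago2KO input replicate 2 was left out, at adjusted p up to 0.177. A fit of these groups alone called 5 members, adding Fgf4 higher and Spry2 and Spry4 lower.

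Between the knockouts the contrast in input RNA was wider. In Trim71KO against Ago2KO cells 8 members were higher and 1, Etv5, was lower, where 28.4% of all genes were called, 13.2% higher and 15.1% lower. Spry4 led with 1.36 (SE 0.16, edgeR adjusted p 5.51e-07), rank 170 of 19778 genes, followed by Spry2 at 0.54 (SE 0.13) and Dusp6 at 0.54 (SE 0.11). Only Spred2 was not called. Fgf4, at 0.37 (SE 0.12, edgeR adjusted p 0.0186), lost its call without Trim71KO input replicate 1, Trim71KO input replicate 3 or Ago2KO input replicate 2, at adjusted p up to 0.06. Fgfr1, at 0.23 (SE 0.07, edgeR adjusted p 0.00974), lost it without Ago2KO input replicate 3 and with library size alone (adjusted p 0.0626 and 0.0513).

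Input RNA was also compared between the tagged and the untagged line. In experiment 1 Spred1 was higher in tagged than in untagged cells by 0.55 (SE 0.10, edgeR adjusted p 0.00136), and Dusp6 by 0.33 (SE 0.09, edgeR adjusted p 0.0177), where 10.6% of all genes were called, 5.69% higher and 4.87% lower. The Dusp6 call was lost without untagged input replicate 1 or 3 or tagged input replicate 2, or with library size alone, at adjusted p up to 0.1. In experiment 2 edgeR called 0 members, where 1.39% of genes were called (0.809% higher, 0.581% lower), while 6 had an unadjusted p under 0.05 and DESeq2 called 1. Spred1 there stood at 58.4 to 63.2 CPM in tagged and 67.2 to 71.9 CPM in untagged cells, the opposite order to experiment 1.

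Members that moved together across the 21 input libraries were compared after centring each experiment, as Pearson correlations over libraries that share genotypes and experiments. Spry2 and Dusp6 were the closest pair at 0.83, then Spry2 and Etv4 at 0.75, and Fgf4 and Spry4 at 0.72. Among 12620 genes, those most like Fgf4 were Shisa2 (0.98) and Ackr3 (0.98), and those most like Spry4 were Klf16 (0.97) and Itpk1 (0.95). Most like Dusp6 were Fam169a (0.93) and Tra2a (0.92), most like Spry2 were Odc1 (0.90) and Ccdc116 (0.88), and most like Spred2 were Rnf44 (0.95) and Hus1 (0.92). For Spred1 they were Ipw (0.91) and Bclaf3 (0.91), for Etv4 Id1 (0.91) and Mrpl10 (0.89), and for Fgfr1 Itga6 (0.91) and C77080 (0.90). The highest values for Spry1, Ruvbl2 (0.88) and Ppm1j (0.87), and for Etv5, Fancm (0.88) and Clip3 (0.86), were lower.

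The 250 bases before the start of Spry2 and Dusp6 are shown because these were the closest pair, 5′ to 3′ on each gene's own strand, with every GGAA or TTCC in capitals. This 4-letter core is what ETS factors such as Etv4 and Etv5 are known to bind. The windows are RefSeq GRCm38.p6 chr14:105896820-105897069 on the minus strand for Spry2 and chr10:99262981-99263230 on the plus strand for Dusp6.
Spry2: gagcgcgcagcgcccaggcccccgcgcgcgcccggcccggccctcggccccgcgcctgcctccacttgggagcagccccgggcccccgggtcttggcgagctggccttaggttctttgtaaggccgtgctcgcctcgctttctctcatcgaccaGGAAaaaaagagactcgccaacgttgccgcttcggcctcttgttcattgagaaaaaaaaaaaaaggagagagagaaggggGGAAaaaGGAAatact
Dusp6: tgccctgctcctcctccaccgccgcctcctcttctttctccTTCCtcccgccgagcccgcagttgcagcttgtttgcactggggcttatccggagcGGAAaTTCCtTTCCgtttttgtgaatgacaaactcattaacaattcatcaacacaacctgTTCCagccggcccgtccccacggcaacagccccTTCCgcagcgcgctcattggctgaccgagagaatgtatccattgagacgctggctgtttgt
The core occurs 3 times in the Spry2 and 6 times in the Dusp6 window, and in 93.4% of the 250-base windows of all 32851 entries. In the full windows of 300 bases the core was in 6 of the 8 windows of 7 members, and in 96.0% of all windows. The longer motif CCGGAAG was searched on both strands of the full windows of 300 bases and matched 0 of the 8 windows of 7 members against 8.86% of all windows. A match is a description of letters and no match says nothing about a factor.

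The wider pathway was described through 52 further genes, of which 50 were in the tables and tested. Tag-specific enrichment was called higher for 27 and lower for 6 of the 50 in experiment 1, and for 20 and 5 in experiment 2. Of all genes 28.1% were higher and 28.8% lower in experiment 1, and 18.9% and 8.77% in experiment 2. The medians of the 50 were 0.58 and 0.28, beside -0.10 and -0.03 over all genes. Of 8 genes for adaptors and a phosphatase, 7 were higher and 1 lower in experiment 1, and 7 were higher and 0 lower in experiment 2. Sos1, the Ras exchange factor, had 3.22 (SE 0.16, edgeR adjusted p 3.29e-14) and 2.26 (SE 0.11, edgeR adjusted p 1.23e-14). The receptor adaptor Frs2 had 2.32 (SE 0.17, edgeR adjusted p 4.32e-11) and 1.48 (SE 0.10, edgeR adjusted p 6.86e-12). Of 7 ERK-induced transcripts, 7 and 4 were higher. The other roles had smaller shares. Of 5 receptor and coreceptor genes, 0 were called in either experiment. Of 5 genes for Ras and Ras GAPs, 1 was higher and 2 lower in experiment 1, and 1 and 1 in experiment 2. Of 10 genes from Raf to RSK, 5 were higher and 2 lower, then 3 and 2. Of 8 ligand genes, 3 were higher and 0 lower, then 3 and 1. Of 7 other feedback inhibitors, 4 were higher and 1 lower, then 2 and 1. None of these lists was tested as a set.

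Dusp9, another phosphatase of ERK, and Hras went the other way in experiment 1, by -1.09 (SE 0.17, edgeR adjusted p 1.27e-05) and -0.86 (SE 0.13, edgeR adjusted p 6.87e-06). In experiment 2 Hras had -0.38 (SE 0.11, edgeR adjusted p 0.01) and the ligand gene Fgf17 -0.62 (SE 0.17, edgeR adjusted p 0.00542). The Trim71-dependent comparison called 2 of the 50 in experiment 1, both lower, where 3.47% of all genes were lower, among them Nras at -0.43 (SE 0.10, edgeR adjusted p 0.0171). In experiment 2 it called 3, all higher, where 0.753% of all genes were higher, among them Fgf15 at 0.68 (SE 0.17, edgeR adjusted p 0.0425) and the adaptor gene Shc1 at 0.45 (SE 0.10, edgeR adjusted p 0.0161).

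The Ago2-dependent comparison called 5 of the 50, all lower, where 4.16% of all genes were called and 3.77% were lower. Sos1 IP fell from 220.0 to 147 CPM on average while its input went from 53.3 to 69.4 CPM, a difference of -0.96 (SE 0.10, edgeR adjusted p 7.72e-07). Frs2 gave -0.61 (SE 0.10, edgeR adjusted p 0.000347). In Trim71KO input of experiment 1, 9 of the 50 were higher and 9 lower, where 16.5% and 17.4% of all genes were. Among those called with a mean log2 CPM of 2 or more and no overlap between groups, the largest changes were in Fgf1 (2.09, SE 0.23), in the ERK-induced gene Egr1 (-2.07, SE 0.17) and in Phlda1 (-1.16, SE 0.14). In experiment 2, 8 were higher and 13 lower, where 13.5% and 13.7% of all genes were. By the same rule the genes named there are Fgf10 (1.12, SE 0.16), Fgf17 (1.01, SE 0.11), Fgfr3 (-1.38, SE 0.14) and Dusp9 (-1.01, SE 0.08). Egr1 there had -0.66 (SE 0.54, edgeR adjusted p 0.399).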

How the data were processed

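Input and IP RNA of 42 libraries was measured with a stranded total RNA kit, per the labels' protocols. The authors deposited 2 tables of raw gene counts that also carry RPKM columns, and no value here comes from RPKM. bcl2fastq 2.20, STAR 2.7.3a and the builds GRCm38 and mm10 are named in the submitters' processing notes; the counting tool, annotation and strand setting are not given in the sources used here. Counts were fitted with edgeR 4.0.16 in R 4.3.3 (TMM, filterByExpr, quasi-likelihood F test, a mean per group, experiments fitted separately), with Benjamini-Hochberg adjustment over all genes. SEs are derived from the change and its F statistic. A fit of all 42 libraries over shared genes compared the experiments. The fit was tested on simulated data with changes of 1 and 2 on the log2 scale, up and down. That test does not cover smaller changes. Replicates differed by more than sampling noise, so each library counts as 1. The 95% intervals are for differences of group means of 3 libraries. Their width uses a spread estimated over all libraries of an experiment and moderated across genes.

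All members were named. Of the wider list, the most changed genes were named, at most 2 per direction and comparison, if called, at a mean log2 CPM of 2 or more and separated between groups. Members and lists were chosen with earlier results of these data known. Alternatives were RLE size factors, library size alone, no filter, a replicate block, the compared groups alone, DESeq2 1.42.0 and each library left out. All 3 same-numbered pairs correlated above 0.1 between tagged and Trim71KO of experiment 2 (0.271 to 0.416) and between tagged input and IP there (0.132 to 0.221). In every other pair of groups at least 1 of 3 did not. Coordinates, promoters and microRNAs come from RefSeq GRCm38.p6. Transcript and protein sequences were not used here.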

Additional observations from a re-analysis of the deposited data

Results flagged for a closer look

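The following values differed between the experiments by a test of the difference itself, experiment 2 minus experiment 1, in the fit of all 42 libraries with edgeR. In input RNA of Trim71KO against tagged cells they were Dusp6 at 1.23, Spred1 at 0.68, Spry2 at 0.65 and Etv4 at 0.37. Dusp6 and Spred1 were each called in opposite directions in the experiments, against tagged cells. Mean Spred1 input was higher in Trim71KO than in untagged cells in both, at 56.0 against 48.1 and 78.5 against 68.9 CPM. In tag-specific enrichment they were Fgf4 at -1.29, Spry4 at -1.31, Spred2 at -1.31 and Spry2 at -0.75. Each was smaller in experiment 2, where large enrichments were fewer over all genes as well. With RLE size factors or library size alone these values kept their direction, and the Etv4 call was lost with library size alone (0.26, edgeR adjusted p 0.113). The experiment is confounded with whatever else differed between the 2 rounds, which cannot be told apart.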

How the results depend on the processing

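Over the alternatives no member's change reversed its sign against a called value. Of the members' values under an alternative, 2376 stayed on their side of the threshold, 32 gained a call and 82 lost it. With library size alone the number of members called went from 2 to 1 for input RNA of tagged against untagged cells in experiment 1, from 1 to 0 for Ago2-dependent enrichment, and from 1 to 2 for Trim71KO against Ago2KO enrichment. With a replicate block within fraction it went from 0 to 1 (Fgf4) for Trim71-dependent enrichment in experiment 1 and from 0 to 1 for input RNA of tagged against untagged cells in experiment 2. With a replicate block pairing input and IP it went from 1 to 2 for Trim71KO against Ago2KO enrichment, and DESeq2 gave 2 there and 1 for the experiment 2 tagged against untagged input. Fitting only the groups compared gave 1 for the latter and 5 in place of 2 for input RNA of Ago2KO against tagged cells. Fits that each left out a library gave 1 to 3 members for tagged against untagged input in experiment 1, 0 to 2 for Trim71-dependent enrichment in experiment 1, 1 to 2 for Ago2KO against tagged input and 1 to 2 for Trim71KO against Ago2KO enrichment. The cause was not tested. The replicate block moved no other count of members by more than 1.5 times. Spry1, at 187 counts or more per library, was the member with the least depth.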
